A study of Homo sapiens with 8 samples.

Results

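The genes described here belong to families of enzymes that add or remove acetyl and methyl groups on histones and methyl groups on DNA. They were chosen by symbol and are called by family name: histone deacetylases (HDAC), sirtuins (SIRT), lysine demethylases (KDM), lysine methyltransferases (KMT2, KMT5, SETD, EZH), lysine acetyltransferases (KAT), DNA methyltransferases (DNMT) and the TET dioxygenases. A symbol alone does not show that a member acts on histones or DNA, and SIRT4, for example, is mitochondrial. Of 19777 genes with a probe set of their own, 68 matched the pattern. The 5 on the sex chromosomes (HDAC6, HDAC8, KDM5C, KDM5D and KDM6A) were left out, which left 63 enzymes. They have 179 probe sets, 49 of them have more than 1, and the brightest over all arrays stood for each gene.

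All 8 arrays came from MDA-MB-231, a human line from a metastatic breast cancer, stably carrying a retroviral hairpin against GFP as a control. The cells were kept 24 h without serum, and 4 arrays were of untreated cells and 4 of cells given TGFβ for 3 h. The labels state 5 µg/ml, but TGFβ is usually used at ng/ml, so that unit is uncertain. The replicate letters A to D occur in both groups, and the labels call them biological replicates without saying what was separate (cultures, passages or days), so p-values cover only the spread between these samples. By its title, the series looked for genes that TGFβ and mutant p53 control together; its arms with p53 knocked down were not used here.

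TGFβ signals through receptor kinases to SMAD transcription factors, which act on chromatin with acetyltransferases and with corepressors that carry deacetylases. Acetylation by KAT enzymes generally accompanies active genes and is removed by HDAC enzymes and some sirtuins. KMT2 enzymes methylate histone H3 at promoters and enhancers of active genes. EZH1 and EZH2 are the catalytic subunits of Polycomb repressive complex 2, which sets a repressive methyl mark on histone H3 that KDM6 enzymes remove. DNMT1 copies DNA methylation after replication, DNMT3A and DNMT3B set it anew, and TET enzymes oxidise it.

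The cells' response to TGFβ was visible on these arrays: in a list of early response genes 6 of 9 measured members rose, beside 0.354% of all genes. Among them were JUNB and SMAD7, with log2 fold changes of 1.64 ± 0.11 and 1.81 ± 0.21 (SE; limma, adjusted p = 0.000168 and 0.0039). The other 3, SKIL among them (limma, adjusted p = 0.157), did not pass, and 1 of the 9 had a negative value. That list was chosen with earlier results of these data known. Signals of VIM, CD44, MSN and AXL, mesenchymal markers of this line, lay above those of 99.95, 98.5, 99.0 and 92.1% of genes, while the hormone receptor genes PGR and ESR1 and the receptor ERBB2 lay above 14.2, 49.9 and 65.7%. SPARC, another mesenchymal gene, lay above only 12.6%, while the epithelial gene EPCAM lay above 80.6% and GATA3 above 69.5%, against the line's usual description. Among genes of other cell types, PTPRC of leukocytes lay above 29.6% and CDH5 of endothelium above 15.1%, while PECAM1 lay above 68.6%. Probe sets differ in brightness at equal RNA, so these ranks are rough. Array medians lay between 4.62 and 4.66 (RMA signal, log2). Treated replicate A had a larger gap between the 3′ and 5′ control probe sets of ACTB, 1.68 against 0.63 to 0.89 on the other arrays, and of GAPDH, 0.54 against 0.06 to 0.14.

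None of the 63 enzymes passed the test of treated against untreated cells (limma over all 19777 genes, Benjamini-Hochberg adjusted p of at most 0.05), where 114 genes or 0.576% passed. At an unadjusted p under 0.05 there were 5 enzymes, 7.94%, beside 8.14% of all genes. KDM6B was on the higher side (1.59%, beside 3.95% of genes), and DNMT3B, KMT2A, TET1 and EZH1 on the lower (6.35%, beside 4.19%). Arrays with the same letter deviated together, and adding the letter to the fit as a replicate block called 3 enzymes, 4.76%, beside 3.56% of all genes. In that fit KDM6B rose (1.59% of enzymes, beside 1.39% of genes), and DNMT3B and KMT2A fell (3.17%, beside 2.18%). At an unadjusted p under 0.05 it held 1 enzyme on the higher side, beside 6.55% of genes, and 11 on the lower, 17.5% beside 8.77%. The shares past the adjusted threshold lay close to the background, and by its brightest probe set no enzyme differed by as much as 1.5-fold. Another probe set of SETD5 had -0.63 ± 0.30 SE, with its lowest value on treated replicate A. It passed neither fit over all probe sets (limma, adjusted p = 0.71 and, with the block, 0.36).

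The estimates also give an interval for the change of each brightest probe set. Each interval was taken for 1 gene alone, so together they are not a joint bound on the 63. Other probe sets of the same genes can lie outside these intervals. In the fit without the letter the 95% interval of the log2 fold change stayed within 2-fold either way for all 63 enzymes, and within 1.5-fold for 53 of them. The 10 whose intervals reached past 1.5-fold were DNMT3B, KMT2A, TET1, KAT2B, KAT6B, KMT2C, KMT2E, TET2, KDM1B and KDM7A. All of these intervals reached past it on the lower side, and that of KDM7A on both sides (-0.78 to 0.75). The median absolute log2 fold change was 0.10 for the enzymes and 0.09 over all genes. RMA understates changes of probe sets near background, and 5 of the 63 enzymes lay in the lowest 40% of gene signals.

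**Figure D1:**
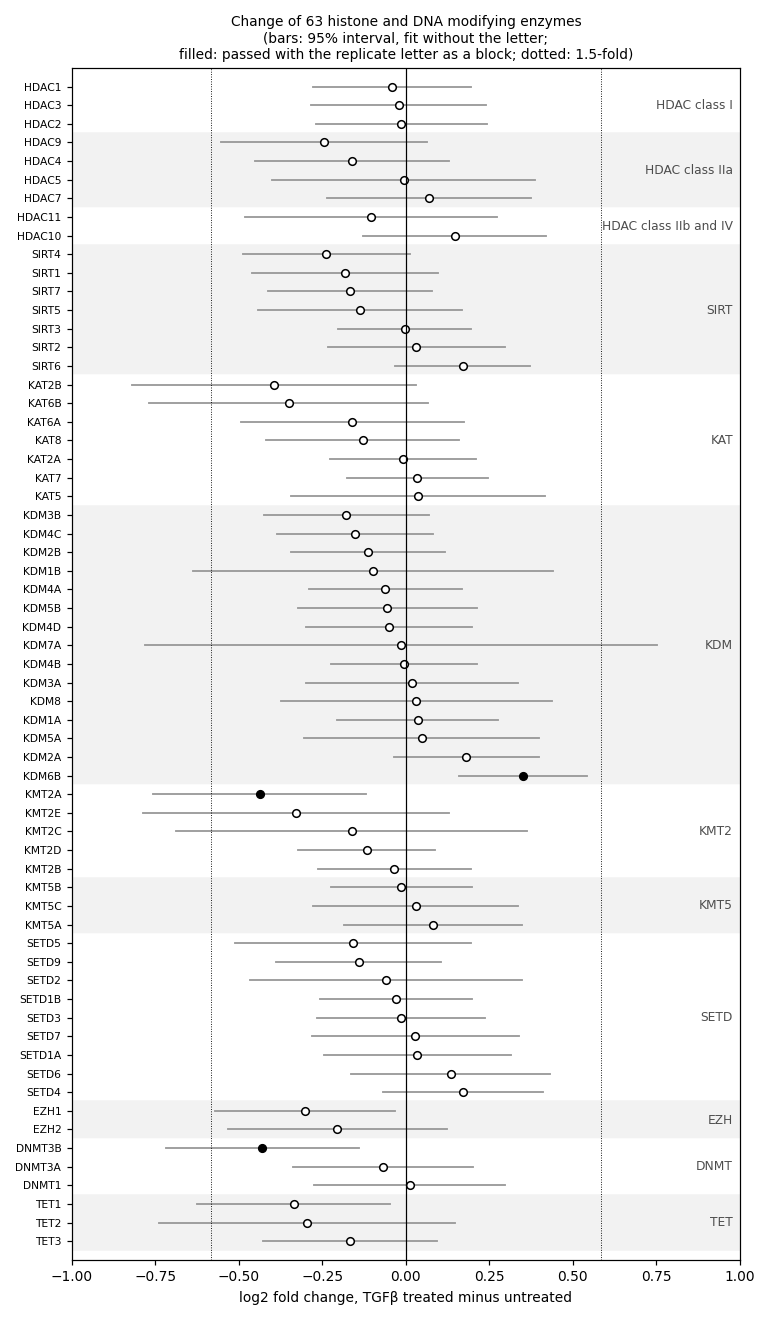
Log2 fold change (x axis, TGFβ treated minus untreated) of each of the 63 enzymes, grouped by class, with bars for the 95% interval of the fit without the letter and dotted lines at 1.5-fold. All points lie between -0.44 and 0.35, and the 3 filled points, KDM6B, DNMT3B and KMT2A, passed only in the fit with the replicate letter as a block.

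The sequences before the start sites of these 3 enzymes are shown because they are the members with a call in either fit. Each is 250 bases upstream of a RefSeq start (GRCh38.p14, plus strand, 5′ to 3′), and capitals mark the letters CAGAC or their reverse complement GTCTG, the short element that SMAD proteins bind.
KDM6B, chr17:7833967-7834216: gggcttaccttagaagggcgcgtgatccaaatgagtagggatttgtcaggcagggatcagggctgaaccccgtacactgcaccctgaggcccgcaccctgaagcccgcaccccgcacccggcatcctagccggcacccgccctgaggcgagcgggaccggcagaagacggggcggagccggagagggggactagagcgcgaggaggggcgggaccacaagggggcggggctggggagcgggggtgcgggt
DNMT3B, chr20:32779602-32779851: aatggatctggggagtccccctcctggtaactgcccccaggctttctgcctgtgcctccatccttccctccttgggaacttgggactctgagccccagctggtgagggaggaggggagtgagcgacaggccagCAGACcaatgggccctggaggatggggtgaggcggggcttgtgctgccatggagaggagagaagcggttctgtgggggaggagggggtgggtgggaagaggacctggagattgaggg
KMT2A, chr11:118436242-118436491: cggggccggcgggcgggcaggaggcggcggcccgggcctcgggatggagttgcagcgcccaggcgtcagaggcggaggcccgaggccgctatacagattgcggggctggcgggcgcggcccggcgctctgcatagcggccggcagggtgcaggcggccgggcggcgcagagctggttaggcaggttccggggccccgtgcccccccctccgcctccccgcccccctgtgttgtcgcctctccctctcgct
DNMT3B held 1 match, and the KDM6B and KMT2A windows held none, nor did the second KDM6B start site at chr17:7839667-7839916. Windows were found for 58 of the 63 enzymes, 93 in all, since a gene can have several starts, some of which overlap. CAGAC or GTCTG stood in 38.7% of them and in 38.0% of all 35116 windows. The palindrome GTCTAGAC stood in 0 of 93 and in 0.182% of all, and GGCGCC in 26.9% and 16.4%. These are matches of letters, not binding sites.

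KDM6B (Entrez Gene 23135), a demethylase of the Polycomb mark also known as JMJD3, had the smallest unadjusted p of the 63 without the block. With the block, DNMT3B and KMT2A had smaller ones. The signals of KDM6B were 7.28, 7.33, 7.29 and 7.33 in untreated replicates A, B, C and D and 7.53, 7.75, 7.62 and 7.72 in the treated ones (RMA, log2). The groups did not overlap, which held for 2 of the 63 enzymes (3.17%) beside 5.12% of all genes, 1 higher beside 2.9% and 1 lower beside 2.21%. The mean went from 7.31 ± 0.02 to 7.65 ± 0.10 (SD, n = 4 each), a 1.27-fold difference. Its log2 fold change was 0.35 ± 0.09 SE with an adjusted p = 0.152 in limma, and 0.0475 with the letter as a block. With the block and without letter B, C or D the adjusted p was 0.230, 0.138 and 0.226, and without letter A 0.0315. Leaving out letter A, with the block, gave 7 of the 63 enzymes called, beside 1304 of all 19777 genes (6.59%). Leaving out only treated replicate A, without the block, gave 0 beside 1.17%.

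The other probe sets of KDM6B bear on the same RNA, so they are not further replicates. Of its 5 probe sets 4 were higher in every treated array than in any untreated one, with log2 fold changes of 0.35, 0.33, 0.22 and 0.51. The largest, 0.51 ± 0.12 SE, belonged to a dimmer probe set that read 4.80, 4.99, 4.95 and 4.90 untreated and 5.26, 5.73, 5.29 and 5.40 treated. It was the single one of the 179 probe sets of the enzymes that passed with the block over all 54613 probe sets (adjusted p = 0.0338, beside 1.75% of all probe sets). Without the block none of the 179 passed, beside 0.256% of all, and 8 of them, 4.47%, had groups without overlap beside 4.75% of all. The dimmest probe set of KDM6B had a log2 fold change of -0.01 and overlapping groups.

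**Figure D2:**
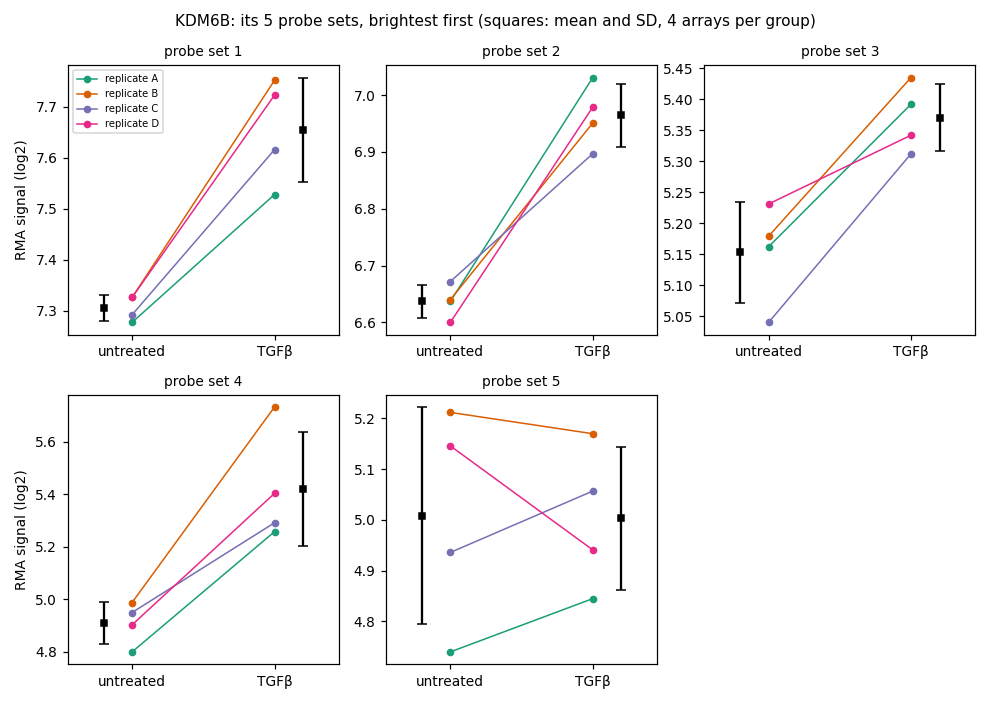
RMA signal (y axis, log2) of the 5 probe sets of KDM6B in untreated and TGFβ treated cells, with lines joining arrays of the same letter and squares for the mean and SD of 4 arrays. In 4 panels every treated array lies above every untreated one; in the last, the groups overlap.

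Among the other demethylases no further member passed either fit. KDM2A, which acts on a methyl mark of histone H3 at CpG islands, was the next by p. It read 8.20, 8.48, 8.44 and 8.54 untreated and 8.54, 8.68, 8.56 and 8.60 treated, with the top untreated array level with the lowest treated one. The difference was 0.18 ± 0.10 SE (limma, adjusted p = 0.732; 0.358 with the block), and all 3 of its probe sets had that direction. KDM1A, the flavin-dependent demethylase LSD1 of the CoREST complex, had a log2 fold change of 0.04 ± 0.11 SE, with an interval from -0.20 to 0.28. Of 15 demethylases 6 had positive and 9 negative values, with a median of -0.01 beside 0.01 over all genes.

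DNMT3B (1789) was the other enzyme whose groups did not overlap. Its signals were 7.46, 7.03, 7.21 and 7.11 in untreated and 6.95, 6.48, 6.78 and 6.88 in treated replicates A to D. Every treated array lay below the lowest untreated one, and both arrays of letter B were the lowest of their group. Its mean fell with the letter as a block, from 7.20 ± 0.19 to 6.77 ± 0.20 (SD, n = 4), a 1.35-fold difference (log2 fold change -0.43 ± 0.09 SE, limma adjusted p = 0.0256). Without the block the SE was 0.13 and the adjusted p = 0.281. The block call was lost without letter B or C (adjusted p = 0.163 and 0.104) and kept without A or D (0.0328 and 0.046). The gene has 1 probe set, which can match several transcripts, so nothing on the array checks it.

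The other DNA methyltransferases did not pass. DNMT1 read 10.39, 9.98, 10.32 and 10.30 untreated and 10.29, 9.96, 10.43 and 10.35 treated. Its groups overlapped fully, the lowest array of each was letter B, and the interval of its log2 fold change ran from -0.27 to 0.30. DNMT3A read 6.91, 6.47, 6.44 and 6.44 untreated and 6.58, 6.49, 6.56 and 6.36 treated, with untreated replicate A above the rest. Its log2 fold change of -0.07 ± 0.12 SE had an interval from -0.34 to 0.20, and 1 of its 3 probe sets had that direction. Whether DNMT3B differed from DNMT1 or DNMT3A in its response was not tested.

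By their brightest probe sets all 3 TET genes had negative values, and none passed. Of the probe sets of TET1, TET2 and TET3, 2 of 2, 2 of 3 and 2 of 3 had that direction. TET1 (80312) read 3.33, 3.87, 3.68 and 3.39 untreated and 3.24, 3.39, 3.21 and 3.10 treated, at the low end of the array's scale. Its difference was -0.34 ± 0.13 SE (limma, adjusted p = 0.498; 0.0927 with the block), lower in 4 of 4 same-letter pairs. TET2 read 5.93, 6.81, 6.28 and 6.36 untreated and 6.12, 6.46, 5.65 and 5.96 treated. It was lower in letters B, C and D and higher in letter A, with -0.30 ± 0.20 SE (adjusted p = 0.810; 0.280 with the block). TET3 had -0.17 ± 0.12 SE (adjusted p = 0.823).

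KMT2A (4297), the methyltransferase also known as MLL, had the most negative log2 fold change of the 63. It read 8.16, 8.26, 7.90 and 8.11 untreated and 7.94, 7.90, 7.42 and 7.43 treated. Treated replicate A was above untreated replicate C, so the groups overlapped, while each letter was lower after treatment. The means were 8.11 ± 0.15 and 7.67 ± 0.29 (SD, n = 4), 1.36-fold apart, and the log2 fold change was -0.44 ± 0.14 SE (limma, adjusted p = 0.357). KMT2A fell with the letter as a block (SE 0.10, adjusted p = 0.0332), but not without letter B, C or D (adjusted p = 0.129, 0.145 and 0.195). Of its 11 probe sets 8 had that direction, and the mean of all 11 had -0.13.

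By their brightest probe sets all 5 KMT2 genes had negative values, with a median of -0.16. KMT2E, a family member with a SET domain of little known activity, read 7.65, 8.05, 7.81 and 7.77 untreated and 6.89, 8.05, 7.39 and 7.63 treated. Its lowest value was on treated replicate A, the array with the larger 3′ excess, whose part in this value was not tested. The difference was -0.33 ± 0.21 SE (limma, adjusted p = 0.791), and without that array it was -0.13 ± 0.16 SE. Its chosen probe set can match several transcripts, and without such probe sets the difference was -0.10 ± 0.19 SE. KMT2C, KMT2D and KMT2B had -0.16, -0.12 and -0.04, with 5 of 6, 3 of 6 and 3 of 3 probe sets in that direction. In other fits without the block their values reached up to 0.053, 0.027 and 0.020. The KMT5 enzymes, which methylate histone H4, had values from -0.01 to 0.08 by their brightest probe sets. No interval of these went below -0.28 or above 0.35. The other probe sets of KMT5B had -0.37 ± 0.39 and -0.53 ± 0.22 SE. Neither passed over all probe sets (limma, adjusted p = 0.894 and 0.615, and with the block 0.363 and 0.162).

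The Polycomb methyltransferases both had negative values. EZH1 (2145) read 6.85, 7.23, 6.92 and 6.86 untreated and 6.63, 6.91, 6.62 and 6.49 treated. Each letter was lower after treatment, by 0.23 to 0.37, but treated replicate B overlapped with the untreated arrays. The log2 fold change was -0.30 ± 0.12 SE (limma, adjusted p = 0.526; 0.0801 with the block), and all 5 probe sets had that direction, with a mean over them of -0.13. EZH2 read 8.03, 7.66, 8.08 and 8.18 untreated and 8.04, 7.44, 7.81 and 7.82 treated, with a difference of -0.21 ± 0.15 SE, and passed neither fit (limma, adjusted p = 0.312 with the block). Letter B was lowest in both groups for EZH2, DNMT1 and DNMT3B. This was not particular to them: it also held for HDAC3, HDAC10, KAT2A, KDM1A and SIRT2, among others. For EZH1, letter B was the highest in both groups. The mean of 10 proliferation genes was also lowest in letter B, at 8.50 untreated, where the other arrays had 9.10 to 9.28, and 8.42 treated, where they had 8.65 to 8.96. After treatment 9 of these 10 genes had negative values, with a median log2 fold change of -0.31, beside those of DNMT3B and EZH2. None passed without the block, and ASPM, at -0.66 ± 0.20 SE, fell with it (limma, adjusted p = 0.296 and 0.0286). The part of proliferation in the enzymes' values was not tested.

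**Figure D3:**
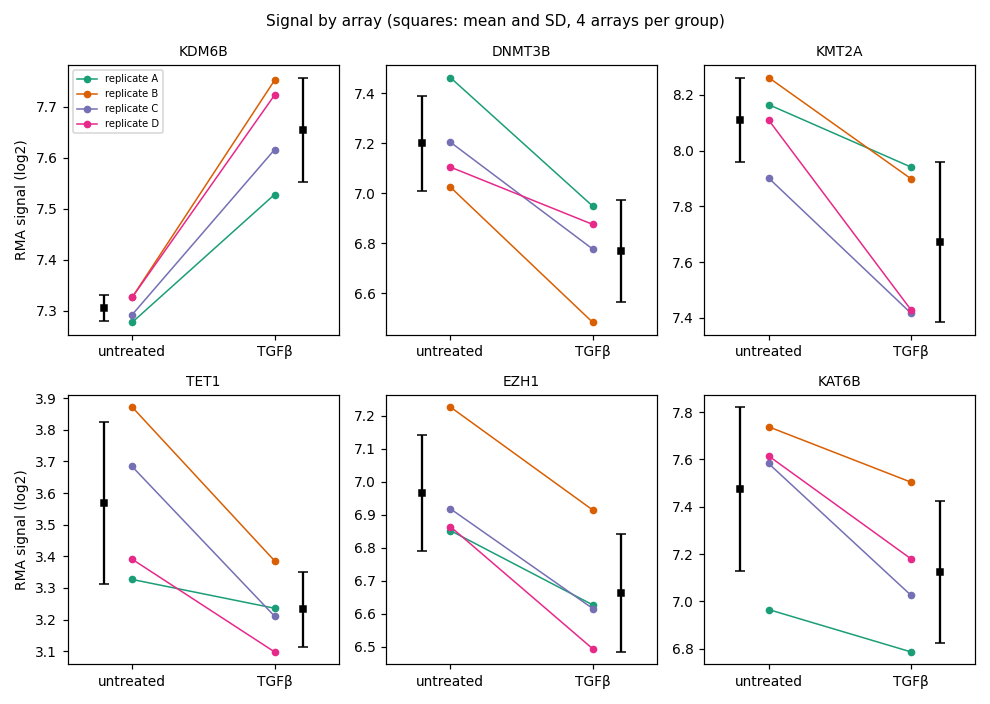
RMA signal (y axis, log2) of KDM6B, DNMT3B, KMT2A, TET1, EZH1 and KAT6B in untreated and TGFβ treated cells, with lines joining arrays of the same letter and squares for the mean and SD of 4 arrays. The lines run the same way in all 4 letters of each gene, but the groups are apart only for KDM6B and DNMT3B.

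Of 7 KAT enzymes none passed, 5 had negative and 2 positive values, and the median was -0.13. KAT2B, the coactivator PCAF, read 7.04, 7.51, 7.16 and 7.09 untreated and 7.12, 7.10, 6.22 and 6.78 treated. Treated replicate C was far below the others, and letter A was slightly higher after treatment. Its difference was -0.40 ± 0.19 SE (limma, adjusted p = 0.666; 0.183 with the block), and without treated replicate C it was -0.20 ± 0.14 SE. KAT6B, the catalytic subunit of an acetyltransferase complex that modifies histone H3, read 6.97, 7.74, 7.58 and 7.62 untreated and 6.79, 7.50, 7.03 and 7.18 treated. It was lower in all 4 letters, with -0.35 ± 0.19 SE and 4 of 5 probe sets in that direction (adjusted p = 0.726; 0.0744 with the block). The other 5 lay between -0.16 and 0.04.

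None of the 9 histone deacetylases passed either fit. HDAC1, HDAC2 and HDAC3, the class I enzymes of the large corepressor complexes, had -0.04, -0.01 and -0.02, and no interval of theirs went below -0.28 or above 0.24. HDAC1 read 10.89, 11.20, 11.12 and 11.20 untreated and 10.90, 11.00, 11.22 and 11.12 treated. HDAC3 read 8.72, 8.68, 8.89 and 8.85 untreated and 8.74, 8.47, 8.98 and 8.86 treated, so both groups overlapped with no array far apart. Of the class IIa enzymes, which shuttle between nucleus and cytoplasm, HDAC9 read 8.15, 7.87, 7.76 and 7.94 untreated and 7.93, 7.87, 7.38 and 7.56 treated, a difference of -0.25 ± 0.14 SE (limma, adjusted p = 0.750; 0.228 with the block). HDAC4 read 5.14, 5.66, 5.70 and 5.70 untreated and 5.40, 5.43, 5.28 and 5.45 treated, with untreated replicate A below the rest, for a difference of -0.16 ± 0.13 SE. HDAC5 and HDAC7 had -0.01 and 0.07, and HDAC10 and HDAC11, of classes IIb and IV, 0.15 ± 0.12 and -0.10 ± 0.17 SE. HDAC10 read 5.64, 5.12, 5.35 and 5.41 untreated and 5.69, 5.36, 5.57 and 5.49 treated, slightly higher in each letter with overlapping groups, but without multi-transcript probe sets its difference was -0.0063. HDAC11 read 6.76, 6.40, 6.48 and 6.46 untreated and 6.54, 5.96, 6.85 and 6.33 treated, with its lowest array in letter B and its highest in letter C.

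The 7 sirtuins, deacylases that use NAD, had values from -0.24 to 0.17. SIRT4, a mitochondrial member, had -0.24 ± 0.11 SE (limma, adjusted p = 0.652) and read 4.01, 4.12, 4.44 and 4.08 untreated and 4.03, 3.78, 3.99 and 3.90 treated, near the low end of the scale. SIRT6, a nuclear member, read 6.82, 6.74, 6.74 and 6.79 untreated and 6.98, 6.78, 7.07 and 6.94 treated. It had 0.17 ± 0.09 SE (limma, adjusted p = 0.725) and was higher in all 4 letters, though 1 of its 2 probe sets had the other direction. SIRT1 read 7.06, 7.42, 7.51 and 7.43 untreated and 7.28, 7.34, 6.97 and 7.10 treated, higher after treatment in letter A and lower in B, C and D. Its difference was -0.18 ± 0.13 SE (adjusted p = 0.820). The 9 SETD genes, which include the transcription-coupled methyltransferase SETD2, had values from -0.16 to 0.17. The smallest p belonged to SETD4 at 0.17 ± 0.11 SE and SETD9 at -0.14 ± 0.11 SE (limma, adjusted p = 0.791 and 0.847). SETD4 read 6.329, 6.196, 6.503 and 6.495 untreated and 6.72, 6.45, 6.60 and 6.44 treated, higher after treatment in A, B and C. SETD9 read 6.01, 5.97, 6.36 and 6.23 untreated and 5.84, 6.04, 6.09 and 6.03 treated, lower in A, C and D. The sign of SETD4 turned without multi-transcript probe sets (-0.11), and that of SETD9 on averaging its probe sets (0.057).

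As a group, 44 of the 63 enzymes had negative and 19 positive values, with a median of -0.05 beside 0.01 over all genes. Negative values made up 69.8% of the enzymes, 47.2% of all genes and 55.4% of genes in the upper 60% of signals, where 58 of the enzymes lie. The count of negative values was 45 after centring each array on its median and 37 after quantile normalization again or on averaging each gene's probe sets. It also differed between letters: 27, 43, 33 and 49 of the 63 were lower after treatment in letters A, B, C and D, with medians of 0.02, -0.09, -0.02 and -0.13. Of all genes 46.7, 57.1, 42.6 and 49.9% were lower in these letters, with medians of 0.02, -0.03, 0.05 and 0. In all 4 letters 8 enzymes were lower (12.7%, beside 10.7% of all genes) and 4 were higher (6.35%, beside 11.7%).

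For 42 of the 63 enzymes the letters differed more than the treatments (by mean squares), 66.7% beside 63.4% of all genes. KDM7A, a demethylase with a PHD finger, read 4.92, 5.61, 4.53 and 4.82 untreated and 5.46, 5.76, 4.22 and 4.38 treated. Letters A and B lay 0.59 above C and D in untreated and 1.32 above them in treated cells, while its mean over all letters hardly differed (-0.01 ± 0.35 SE). KMT2C, a methyltransferase of enhancers, read 7.42, 7.45, 7.09 and 7.13 untreated and 7.63, 7.53, 6.46 and 6.80 treated, so A and B were 0.33 and 0.95 above C and D. Higher values after treatment in A and B with lower ones in C and D were seen in KMT2C, KDM7A, HDAC2, SETD7, KDM5A, KDM3A and KMT5B, 11.1% of the enzymes beside 5.32% of all genes. The opposite pattern was seen in DNMT1, KAT7 and KMT5C, 4.76% beside 8.24%. These letters were set against each other after their values were seen, the labels do not say what a letter stands for, and the differences between letters were not tested.

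**Figure D4:**
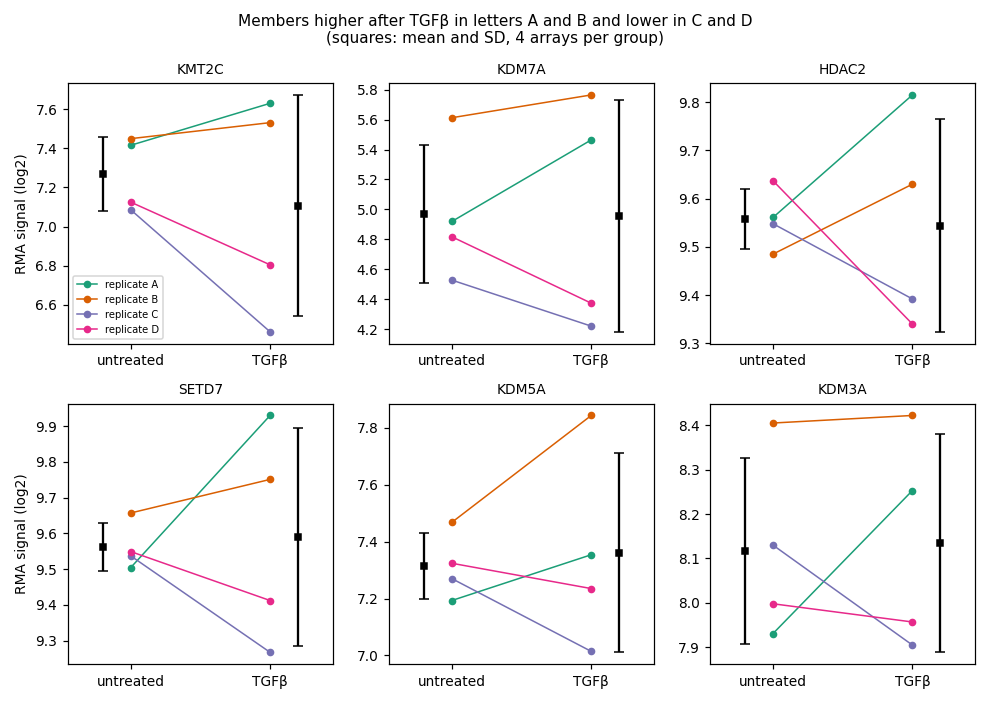
RMA signal (y axis, log2) of KMT2C, KDM7A, HDAC2, SETD7, KDM5A and KDM3A, with lines joining arrays of the same letter and squares for the mean and SD of 4 arrays. The lines of letters A and B go up and those of C and D go down, and the treated arrays spread apart. Group means differ by 0.05 or less, except for KMT2C at -0.16.

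Partners of these enzymes were also counted, leaving out the 63 themselves and genes on the sex chromosomes. Of 18 Polycomb partners, 11 partners of the KMT2 complexes, 23 partners of the deacetylase complexes, 17 other lysine methyltransferases, 9 arginine methyltransferases, 20 other acetyltransferases and scaffolds, 8 other JmjC proteins and 9 readers of acetyl groups, none passed without the block. The medians of these lists lay between -0.10 and 0.03. With the block 1 Polycomb partner, 2 partners of the deacetylase complexes, 1 other lysine methyltransferase and 1 other acetyltransferase gene fell (PHC3, SIN3B and PHF21A, SETDB2, and NCOA2), beside 2.18% of all genes.

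SIN3B, a scaffold that brings HDAC1 and HDAC2 to promoters, read 7.89, 7.92, 7.80 and 7.92 untreated and 7.55, 7.39, 7.49 and 7.18 treated. Its groups did not overlap, and the log2 fold change was -0.48 ± 0.10 SE in all 3 probe sets' direction (limma, adjusted p = 0.0773; 0.0222 with the block). PHF21A, a subunit of the KDM1A and CoREST complex, read 7.09, 7.12, 6.82 and 7.09 untreated and 6.67, 6.58, 6.38 and 6.48 treated. It too had groups apart, at -0.50 ± 0.10 SE with all 4 probe sets in that direction (adjusted p = 0.0780; 0.00882 with the block). PHC3, SETDB2 and NCOA2 had -0.45 ± 0.21, -0.48 ± 0.19 and -0.56 ± 0.24 SE in the fit without the block, with overlapping groups (limma, adjusted p = 0.631, 0.517 and 0.556). With the block their adjusted p were 0.0363, 0.0203 and 0.0245. Of their probe sets 3 of 5, 5 of 6 and 3 of 4 had that direction.

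The other genes with the smallest p of these lists passed neither fit. JMJD6, a JmjC hydroxylase, was at 0.44 ± 0.13 SE (limma, adjusted p = 0.280 and, blocked, 0.0548), and PHF2 at -0.20. The Polycomb genes PCGF2 and CBX2 were at 0.38 and -0.33, and the KMT2 complex partners PSIP1 and NCOA6 at -0.35 and -0.17. SMYD1 was at 0.30, PRMT3 at 0.09 and CARM1 at -0.19. MSL1 and ING2, subunits of acetyltransferase complexes, were both at -0.30, and the bromodomain genes BRD1 and BRD8 at -0.26 and -0.22. These are values of the brightest probe sets. Only 1 of 3 probe sets of MSL1, 1 of 2 of ING2, PHF2 and NCOA6, and 2 of 4 of CBX2 and PSIP1 had the direction given. For JMJD6 and PCGF2 all 4 had it.

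Among 15 partners of DNA methylation, GADD45B, a stress-response gene linked to DNA demethylation, rose from 8.23 ± 0.14 to 9.26 ± 0.24 (SD, n = 4; log2 fold change 1.03 ± 0.13 SE, limma adjusted p = 0.00583). Its relative GADD45A had 0.44 ± 0.17 SE and rose with the block only (adjusted p = 0.514 and 0.0349). So 1 of the 15 rose without the block and 2 with it, beside 0.354% and 1.39% of all genes. None of the 15 fell in either fit, beside 0.222% and 2.18%, and the list's median was -0.02.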

How the data were processed

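Total RNA of 8 samples was hybridised to Affymetrix arrays, 1 array each. The deposited values are log2 signals per probe set; the submitters' processing notes name RMA. The log2 scale was inferred from RMA and the range of the values. Which arrays were normalized jointly is not stated. RMA gives no detection calls. Of 54675 probe sets 62 controls were left out; 41091 name 1 gene in the platform annotation of 2016, 1801 several and 11721 none. The brightest probe set stood for each of 19777 genes.

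Treated and untreated arrays were tested in R 4.3.3 by limma 3.58.1 (lmFit, eBayes, two-sided, threshold 0.05 after Benjamini-Hochberg adjustment over all genes), without the letter. Deviations from the group means correlated at 0.49, 0.69, 0.34 and 0.30 for letters A, B, C and D, so the letters pair the arrays; that pairing comes from the data. The blocked fit is given where it changes a call. The fits were also run on simulated data without shared deviations of a letter. That simulation therefore does not show how the fits behave where letters pair the arrays. Given by array were members called in either fit, the 2 smallest p per class (KMT5 was given no such pair), and EZH1, EZH2, DNMT1, DNMT3A, DNMT3B, HDAC1, SIRT1 and TET2. KDM1A was given by its log2 fold change and interval. The 2 smallest p of each partner list were named, most by log2 fold change alone. SETD2, KDM7A, KMT2C and others named for the letters were chosen after their values were seen. So were the further probe sets named for SETD5 and KMT5B. Members and lists were chosen with earlier results of these data known. Promoters came from RefSeq (GRCh38.p14). Precision is limited by the number of arrays. Figures used matplotlib 3.10.9 in Python 3.11.15.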

Additional observations from a re-analysis of the deposited data

Results flagged for a closer look

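Among 50 groups of 4 arrays of the 25 enzymes chosen by rule, 2 had 1 array far from the other 3, and chance gives about 1 in 20. Untreated replicate A was the highest for DNMT3A, with a gap to the next array of 0.934 of the group's range (6.91 against 6.44 to 6.47). Untreated replicate A was also the lowest for HDAC4, with a gap of 0.929 of the range (5.14 against 5.66 to 5.70).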

How the results depend on the processing

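The number of enzymes called was 0 in the fit without the letter, with each array left out in turn, with the upper 60% of signals, centring, a further quantile normalization, a prior that was trended and robust, averaged probe sets, without multi-transcript probe sets, and over all probe sets. It was 3 with the replicate block, which also took all genes called from 114 to 705, and between 0 and 7 with the block and without 1 letter (7 without A, 0 without B or C, 1 without D). All genes called ranged from 46 (without treated replicate D) to 1304 (block without letter A) over all fits that leave out a replicate; without the block they were 49 and 53 without untreated C and D, 232 without treated A and 59 without treated C. The 7 enzymes called without letter A, which holds the array with the 3′ excess, were KDM6B, rising, and KMT2A, KAT2B, TET2, TET1, KAT6B and DNMT3B, falling, beside 6.59% of all genes; the cause was not tested. With the block, calls went from 0 to 1 in the probe sets of the enzymes and in the proliferation genes (ASPM, adjusted p = 0.0286), Polycomb partners, other lysine methyltransferases and other acetyltransferases, from 0 to 2 in partners of deacetylase complexes, and from 1 to 2 in partners of DNA methylation. Signs turned in 5 values, none of them called: DNMT1 was -0.0025 after centring, DNMT3A 0.027 and SETD9 0.057 with the mean of probe sets, and HDAC10 -0.0063 and SETD4 -0.11 without multi-transcript probe sets. Leaving out replicates, ranges that crossed 0 were -0.079 to 0.11 for DNMT1, -0.13 to 0.048 for DNMT3A, -0.11 to 0.010 for HDAC1, -0.26 to 0.048 for HDAC11, -0.093 to 0.075 for HDAC3 and -0.024 to 0.10 for KDM1A. No other of the 25 chosen enzymes changed sign under these settings.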
